A study of Mus musculus with 8 samples.

Results

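The genes described here are 47 genes of the cell cycle and of DNA replication, chosen by name from 24421 genes counted in cultured mouse bone marrow cells. All 47 were found in the count table, and all 47 had 0.5 CPM or more in 2 or more libraries, as did 12424 genes in all. CPM are read counts scaled to a common library size. By their known roles, 15 belong to DNA replication and nucleotide supply, 16 to mitosis, 8 to the cyclins and kinases of the G1 phase, 3 are inhibitors of cyclin-dependent kinases, and 5 are E2F, RB or MYC family genes that control the others. Members were picked by name, with earlier results of these data known, and no threshold on a measured value was used.

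A dividing cell first raises D-type cyclins, which bind Cdk4 or Cdk6 and phosphorylate the RB family. This frees E2F transcription factors, which turn on the genes of DNA replication, among them the Mcm2 to Mcm7 helicase and its loaders Cdc6 and Cdt1. Later the B-type cyclins with Cdk1, the Aurora and Polo kinases and the spindle checkpoint genes Bub1 and Bub1b drive mitosis. The inhibitors p21 (Cdkn1a), p27 (Cdkn1b) and p18 (Cdkn2c) hold the kinases back. Langerhans cells are dendritic cells of the epidermis, and retinoic acid acts on cells through nuclear receptors such as RARα, the product of Rara.

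There were 8 libraries of CD11c+ cells grown from C57BL6 bone marrow. The medium held 10% serum, 20 ng/ml of GM-CSF and 10 ng/ml of TGFβ1, and such cultures give Langerhans-like cells. The labels give 3 to 5 days of culture. The first comparison set 2 Rara KO libraries (labelled RARa-/-, from mice in which a CD11c-driven Cre removes a floxed Rara exon in CD11c+ cells) against 2 wild-type libraries, called wt here. The other set 2 libraries of wild-type cells given all-trans retinoic acid (RA, 1 nM by the labels) against 2 wild-type libraries without it, called Control. No source used here gives the age of the mice. The study calls its samples independent without saying which mice or cultures they came from, and the p-values therefore reflect the spread between these libraries alone, which may be technical.

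Between 26325627 and 76077813 read pairs were counted per library, and among the 47 genes the smallest count was 201, for Cdk6. Rara itself had 62.1 and 93.2 CPM in Rara KO cells, against 104 and 127 CPM in wt cells (log2 fold change -0.57, adjusted p = 0.0521). The counts cover the whole gene, not the deleted exon alone. It had 47.3 and 49.1 CPM with RA, against 114 and 124 CPM in Control (log2 fold change -1.31, adjusted p = 0.0013). Of 7 dendritic and Langerhans cell markers, all 7 fell with RA and 4 fell in Rara KO, and their summed level was 1937 and 2608 CPM with RA against 24340 and 22520 CPM in Control, with 19950 and 24200 CPM in Rara KO against 30850 and 34310 CPM in wt. Cd207 is the gene of langerin, a marker of Langerhans cells and of some other dendritic cells. It was at 0.0401 and 0.0377 CPM with RA and at 0.54 and 0.259 CPM in Rara KO cells. The median log2 fold change of the 7 markers was -0.55 in Rara KO, where 6 were under 0 and 1 above, and -3.42 with RA. A sum is weighted towards the most abundant genes and does not show each marker. Itgax, the gene of CD11c, was between 504 and 1310 CPM in all 8. A list of 10 genes of granulocyte precursors and neutrophils summed to 2706 and 733 CPM in Rara KO, 2557 and 569 CPM in wt, 178.5 and 220.3 CPM in RA and 860 and 1199 CPM in Control libraries, so replicate 1 stood apart in both Rara KO and wt. Xist, transcribed from the inactive X of females, was at 91.1 and 253 CPM in the wt libraries but did not exceed 1.08 CPM in any of the other 6, while the Y-linked Ddx3y was at 0 in wt 2 and at 30.0 CPM or more elsewhere, so the sex of the source mice and the genotype cannot be told apart. In bulk RNA, fewer cycling cells and less RNA per cycling cell cannot be told apart either.

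Each comparison was first read over the whole set. With RA, 21 of the 47 genes were higher and 4 were lower than in Control, and 22 did not pass the test. A gene was called when its edgeR quasi-likelihood p, adjusted over all 12424 genes, was under 0.05. Over all tested genes 15.2% were called higher and 19.3% lower in the same comparison. In Rara KO cells 7 of the 47 were higher and 1 was lower than in wt, against 13.6% higher and 13.3% lower over all genes, so the share of higher calls among the 47 was near that background. Scaled by library totals instead, the median of all genes in Rara KO moved to -0.14, 979 genes were called higher and 2770 lower beside 1688 and 1658, and of the 47 genes 4 were higher and 2 lower, with 10 changed in sign. The median log2 fold change of the 47 genes was 0.45 with RA and 0.22 in Rara KO, beside -0.0066 and 0.0028 over all tested genes. With the wt and Control pairs exchanged, this median was 0.69 with RA and -0.0061 in Rara KO. Both RA libraries lay above both Control libraries for 36 of the 47 genes (36.8% of all tested genes), and both Rara KO libraries lay above both wt libraries for 21 of the 47 (32.6% of all tested genes).

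**Figure D1:**
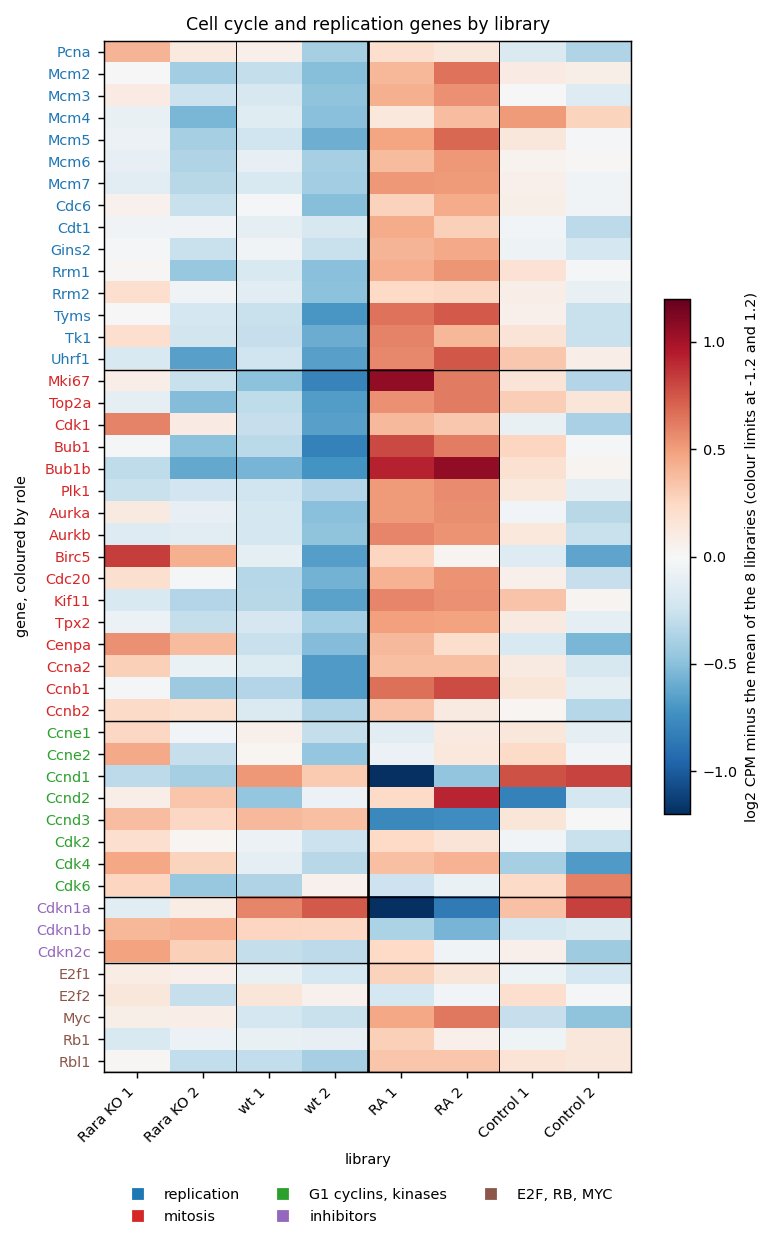
Colour gives log2 CPM minus the mean of the 8 libraries for each of the 47 genes (rows, grouped by role) in each library (columns). The RA columns are red for most replication and mitosis genes and blue for Ccnd1, Ccnd3, Cdkn1a and Cdkn1b, and the wt 2 column is the palest or bluest for most mitosis genes.

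The calls rested on few libraries. With wt 2 left out, none of the 47 genes was called in Rara KO by edgeR, 7 having an unadjusted p under 0.05, and with Rara KO 1 left out only Cenpa was. With wt 1 and Rara KO 1 left out together, a choice made after seeing the data, the count was also 0, with 8 at an unadjusted p under 0.05. For RA the count without Control 2 was 4 higher and 3 lower, and it was 15 without RA 1 and 15 without RA 2. Within the groups, 39 of the 47 genes were higher in Rara KO 1 than in Rara KO 2 and 44 were higher in wt 1 than in wt 2, so both libraries with many granulocyte transcripts were also those with more transcripts of these genes. Control 1 exceeded Control 2 for 41 genes, and RA 1 exceeded RA 2 for 18. The part of the granulocyte transcripts in the results was not tested.

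Levels among the genes were compared per kilobase of exon, as RPKM averaged over the 8 libraries. Pcna, the sliding clamp of DNA polymerase, was the highest at 250.1 RPKM, with a range of 187 to 327. Cdk4 followed at 151 RPKM and Cdkn1a at 149 RPKM, with ranges of 90.6 to 200.2 and of 43.6 to 232 RPKM. These close averages hide an order that differed between the groups. Mean Cdkn1a was above Cdk4 in wt (208 against 125 RPKM) and Control (200 against 100 RPKM). It was below Cdk4 with RA (58.5 against 190 RPKM) and in Rara KO (130 against 187 RPKM). Ccnd3 stood at 114 RPKM. The 6 Mcm helicase genes lay between 31.1 RPKM for Mcm2 and 60.85 RPKM for Mcm6, and Mki67, the gene of the proliferation antigen Ki-67, had 31.3 RPKM. At the low end stood Cdc6 at 6.33 RPKM and Cdk6 at 3.72 RPKM, so Cdk4 and not Cdk6 was the main D-cyclin kinase transcript in these cells.

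Among the genes of replication and nucleotide supply, 7 of 15 rose with RA and the others did not pass the test. Over all tested genes 15.2% were called higher. The median log2 fold change of the 15 was 0.45, with a range of -0.14 to 0.78. Of the Mcm helicase genes, which unwind DNA at the fork, Mcm3, Mcm5, Mcm6 and Mcm7 rose. Mcm7 had 197 and 196 CPM with RA, against 143 and 133 CPM in Control (log2 fold change 0.51, SE 0.11, adjusted p = 0.0102). Mcm5, on chromosome 8 from 75109509 to 75128439 in mm10, had 173 and 201 CPM against 136.5 and 123.5 CPM (0.52, SE 0.16, adjusted p = 0.0323), and Mcm3 had 228 and 248 CPM against 169 and 152 CPM (0.57, SE 0.15, adjusted p = 0.0195). For all 3 both RA libraries lay above both Control libraries, as they did for 36.8% of all tested genes. Mcm6 had 224.5 and 247 CPM against 178 and 174 CPM (0.42, adjusted p = 0.0396). Mcm2 was similar in size at 134 and 159 CPM against 109 and 106.5 CPM but missed the threshold (0.45, adjusted p = 0.0535). Mcm4, of the same hexamer, had 195 and 232 CPM with RA against 256 and 215 CPM in Control, 2 ranges that overlapped (-0.14, SE 0.19, adjusted p = 0.588). In wt cells it had 162 and 126.5 CPM. RA set against that wt pair in edgeR gave 0.57 for Mcm4 (SE 0.19, adjusted p = 0.0392). No test compared Mcm4 with the other Mcm genes.

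The loading factor Cdt1 and Gins2, a subunit of the active helicase, rose too. Cdt1 had 72.2 and 64.5 CPM with RA, against 51.6 and 42.6 CPM in Control (log2 fold change 0.54, SE 0.11, adjusted p = 0.00851). For Gins2 the values were 31.2 and 32.4 CPM with RA and 22.6 and 20.4 CPM in Control (0.57, SE 0.13, adjusted p = 0.0122). Tyms, the thymidylate synthase, had the largest fold change of the 15, with 76.2 and 80.7 CPM with RA and 50.7 and 40.5 CPM in Control (0.78, SE 0.17, adjusted p = 0.00859). For these 3 genes too both RA libraries lay above both Control libraries, as for 36.8% of all tested genes. Pcna had 357 and 341 CPM with RA and 275 and 242 CPM in Control and did not pass (0.43, SE 0.16, adjusted p = 0.0729). Of the other genes, the ribonucleotide reductase subunits Rrm1 and Rrm2, the thymidine kinase Tk1, the loader Cdc6 and the methylation maintenance factor Uhrf1 had log2 fold changes of 0.24 to 0.54 without passing. Without Control 2 no replication gene remained called. Mcm3, Mcm5 and Mcm6 were also uncalled without Control 1, RA 1 or RA 2, Cdt1 without RA 1, and Gins2 without RA 2.

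In Rara KO cells none of the 15 replication genes was called by edgeR. Of these, 2 had an unadjusted p under 0.05, and DESeq2 called 2, Pcna and Rrm2. With TMM scaling all 15 fold changes were above 0, with a median of 0.15 and a highest value of 0.43 for Tk1 in log2. Pcna had 412 and 336 CPM in Rara KO cells and 322 and 235 CPM in wt cells (log2 fold change 0.42, SE 0.16, adjusted p = 0.0886). Although the groups did not overlap, Rara KO 2 and wt 1 lay close together. The 6 Mcm genes ranged from 0.01 to 0.26 in log2, and none of them had even an unadjusted p under 0.05 or a call by DESeq2. Mcm5, for example, had 118 and 94.7 CPM in Rara KO cells, against 106 and 83.1 CPM in wt cells, where the ranges overlapped.

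The mitosis genes formed the largest called group. With RA 10 of 16 rose and the other 6 did not pass, where 15.2% of all tested genes were called higher. The log2 fold changes were 0.37 to 0.94 over all 16, with a median of 0.58. For all 16 both RA libraries lay above both Control libraries, as they did for 36.8% of all tested genes. Mki67, on chromosome 7 from 135689788 to 135716379 in mm10, had 607 and 447 CPM with RA, against 324 and 227 CPM in Control (log2 fold change 0.94, SE 0.22, adjusted p = 0.013). RA 1 was far above RA 2, and without RA 1 the log2 fold change was 0.70 and was not called. Bub1b, a component of the spindle checkpoint, had 225 and 247.5 CPM against 134 and 121 CPM (0.89, SE 0.13, adjusted p = 0.00141). It was the one mitosis gene called in RA under each of the 20 alternative fits.

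Of the mitotic kinases, Aurka, Aurkb and Plk1 rose with RA, while Bub1 did not pass (log2 fold change 0.58, adjusted p = 0.0571). Aurka had 83.6 and 86.0 CPM with RA, against 57.3 and 46.5 CPM in Control (log2 fold change 0.71, SE 0.14, adjusted p = 0.00658), and Aurkb 95.8 and 92.6 CPM against 69.5 and 53.2 CPM (0.62, SE 0.14, adjusted p = 0.0119). Plk1, the Polo kinase of mitotic entry, had 89.7 and 93.6 CPM against 68.8 and 58.2 CPM (0.53, SE 0.10, adjusted p = 0.0061). For the 3 kinases the RA libraries agreed closely and lay above both Control libraries. Ccnb1, the cyclin that activates Cdk1 at mitotic entry, had 143 and 155 CPM with RA and 99.7 and 83.7 CPM in Control (0.70, SE 0.17, adjusted p = 0.015), and Cenpa, the histone H3 variant of centromeres, had 127 and 112 CPM against 85.1 and 65.99 CPM (0.66, SE 0.15, adjusted p = 0.0113). Cdk1, Cdc20, which activates the anaphase-promoting complex, and Tpx2, a spindle assembly factor, were also called, at 0.59, 0.57 and 0.49 in log2. Top2a, Kif11, Ccna2, Ccnb2, Bub1 and Birc5 were not called, at 0.37 to 0.58. Without Control 2 only Bub1b of the 10 was called. Mki67, Cdk1, Aurkb, Tpx2 and Cenpa were uncalled without RA 1, and Cdk1, Cdc20, Tpx2 and Ccnb1 without RA 2. Granulocyte markers were lower with RA (4 of 10 called, sums above) while these genes rose, and their part in the result was not tested.

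Of the same 16 genes, 5 rose in Rara KO cells and 11 did not pass, where 13.6% of all tested genes were called higher. Of 61 further mitosis genes, taken up below, 6 rose. Birc5, which encodes the chromosomal passenger protein survivin, had 205 and 154.5 CPM in Rara KO cells, against 107 and 72.8 CPM in wt cells (log2 fold change 1.00, SE 0.23, adjusted p = 0.0172). Cenpa had 142 and 126 CPM against 80.3 and 67.6 CPM (0.85, SE 0.15, adjusted p = 0.00682), and Cdk1 had 186 and 132 CPM against 102 and 78.4 CPM (0.82, SE 0.19, adjusted p = 0.0178). For all 3 both Rara KO libraries lay above both wt libraries, as for 32.6% of all tested genes. Cdc20 and Ccnb2 rose by less, at 0.53 and 0.48 in log2. Mki67 had 306 and 241 CPM in Rara KO cells, against 206 and 166 CPM in wt cells (0.56, SE 0.22, adjusted p = 0.094), and Ccnb1 had 89.5 and 66.5 CPM against 70.9 and 56.4 CPM (0.29, SE 0.17, adjusted p = 0.231), so neither was called. The 7 genes of the whole set called higher in Rara KO had a median exon length of 1784 bases, beside 2860 for the 47 genes and 2844 for all tested genes. Rara KO libraries held 48.8 and 46.8% of their uniquely mapped reads in 3′ untranslated regions, against 39.2 and 36.0% in wt libraries. With a length trend removed within each library, 5 genes were called higher and none lower in Rara KO by edgeR (Ccnd1 no longer passed), Cdc20, Ccnb2 and Cdk4 no longer passed, and Mki67 did.

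**Figure D2:**
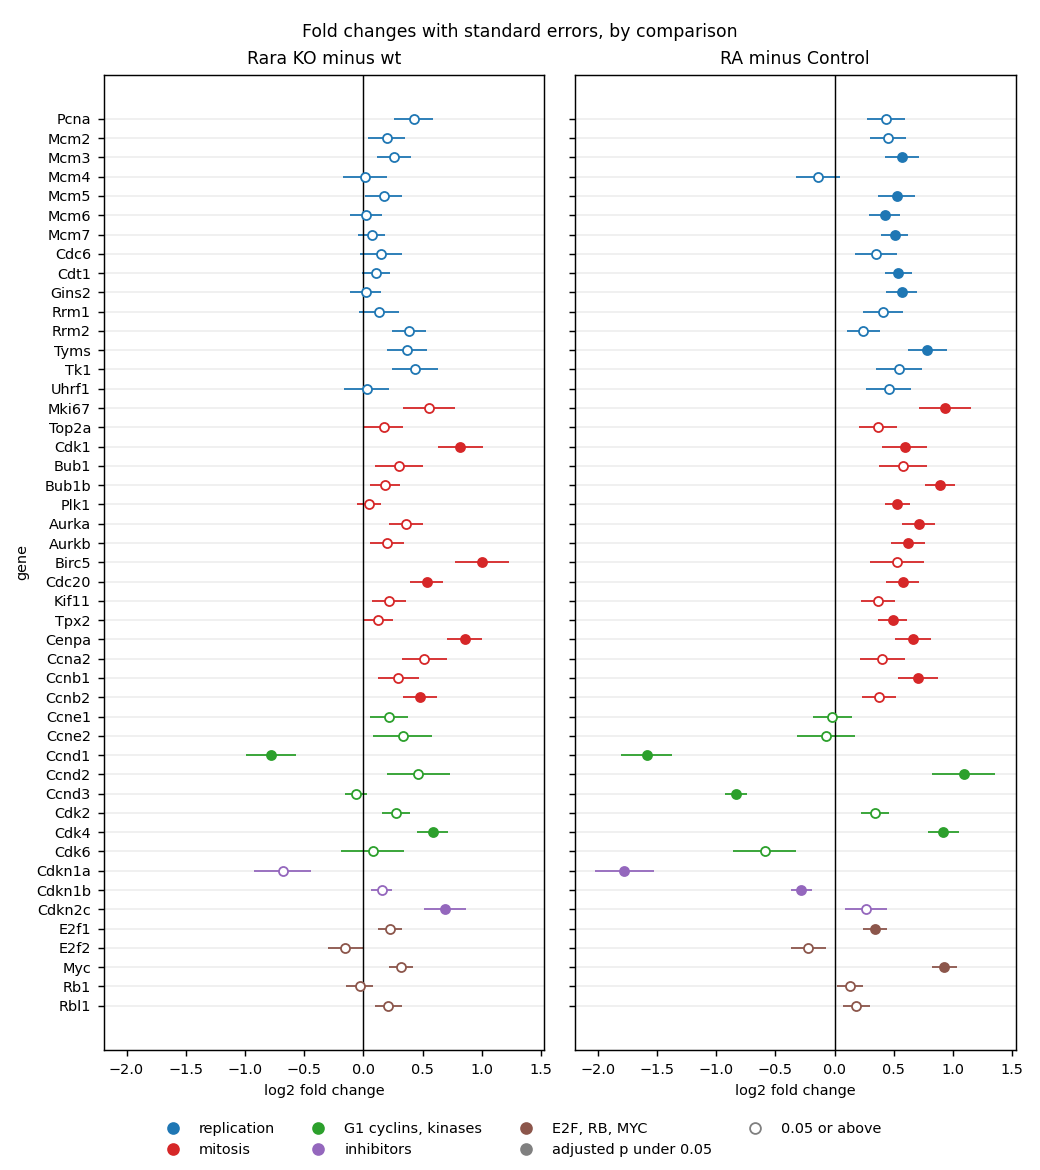
Points give the log2 fold change of each of the 47 genes and bars its standard error, for Rara KO minus wt (left) and RA minus Control (right). Filled points had an adjusted p under 0.05 from edgeR, 8 on the left and 25 on the right, and the mitosis genes (red) all lie to the right of 0 in both panels.

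The promoters of these genes carry known cell cycle motifs, and windows of 250 bases before the transcription start were read from RefSeq sequence (GRCm38.p6, the build of mm10) for 37 of the 47 genes. The cell cycle homology region (CHR, TTTGAA or TTCGAA on either strand) had a match in 7 of the 13 mitosis genes with a window (53.8%), in 2 of 13 replication genes (15.4%) and in 14.7% of the 9509 tested genes with a window. The E2F motif, searched on either strand as TTCCCGC and in its variant forms TTGGCGC, with the further forms TTCGCGC as well as TTGCCGC, had a match in 7 of 13 replication genes (53.8%), in 3 of 13 mitosis genes (23.1%) and in 16.2% of all. CCAAT, the box bound by NF-Y, had a match in 12 of 13 mitosis genes (92.3%), in 9 of 13 replication genes (69.2%) and in 40.5% of all. A reversed E2F match that ends in CCAA can overlap a CCAAT box, as it does in Ccnb1. These matches describe the letters of the windows and are not binding sites shown by these data.

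For 5 mitosis genes called in one or both comparisons, a CHR match is shown 5′ to 3′ on the strand of the gene, since this motif was found in more mitosis than replication windows. CHR matches also lay in Top2a and Kif11, which were not called in either comparison, and in Mcm2, Mcm7 and E2f2, and these are not shown. Capitals mark the match. The first base of the match lies 15 bases before the start in Cdk1 (chr10:69352913-69352951), 18 in Cdc20 (chr4:118437344-118437385), 98 in Mki67 (chr7:135716448-135716501), 167 in Ccnb2 (chr9:70421692-70421745) and 188 in Bub1b (chr2:118597999-118598052). Bub1b is on the forward strand and the others are on the reverse strand.
Cdk1: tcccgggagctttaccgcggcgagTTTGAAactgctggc
Cdc20: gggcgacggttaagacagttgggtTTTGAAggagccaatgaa
Mki67: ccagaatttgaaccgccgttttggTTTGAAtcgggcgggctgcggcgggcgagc
Ccnb2: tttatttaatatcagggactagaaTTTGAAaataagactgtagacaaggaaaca
Bub1b: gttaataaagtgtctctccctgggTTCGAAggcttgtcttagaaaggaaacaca
Cdk1, Cdc20 and Mki67 have the match close to the start, and Bub1b, the mitosis gene with the smallest p in RA, has the TTCGAA form far from it. Cdk1 and Mki67 each have another CHR match further upstream.

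An E2F match of Mcm5 and of Mcm6, which rose with RA, is shown in the same way, with Ccnb1 as the case where the reversed motif runs into a CCAAT box. They start 152 bases before the start in Mcm5 (chr8:75109333-75109387, forward strand), 46 in Mcm6 (chr1:128359721-128359775, reverse strand) and 102 in Ccnb1 (chr13:100786558-100786612, reverse strand).
Mcm5: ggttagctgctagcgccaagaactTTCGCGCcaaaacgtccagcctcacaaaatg
Mcm6: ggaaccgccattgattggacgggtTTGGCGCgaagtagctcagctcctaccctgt
Ccnb1: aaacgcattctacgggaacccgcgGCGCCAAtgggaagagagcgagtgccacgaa
In Mcm5 and Mcm6 a second match on the opposite strand overlaps the one in capitals. Mcm7, which also rose, has E2F matches that are not shown, 113 and 165 bases before its starts.

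The D-type cyclins moved in different directions. Ccnd1, on chromosome 7 from 144929931 to 144939925 in mm10, fell in both comparisons. It had 83.7 and 141 CPM with RA, against 333 and 343 CPM in Control (log2 fold change -1.59, SE 0.21, adjusted p = 0.000996), and 157 and 148.5 CPM in Rara KO cells, against 281 and 244 CPM in wt cells (-0.78, SE 0.21, adjusted p = 0.0296). The groups were far apart in both, although the call in Rara KO was lost when any of wt 1, wt 2, Rara KO 1, Rara KO 2, Control 1 or Control 2 was left out. Ccnd3, on chromosome 17 from 47505051 to 47599688, fell with RA only, to 144 and 147 CPM against 273 and 247 CPM in Control (-0.84, SE 0.09, adjusted p = 0.000377), while it had 319 and 293.5 CPM in Rara KO cells and 323.5 and 317.5 CPM in wt cells (-0.065, SE 0.09, adjusted p = 0.626). Ccnd2 went the other way and rose with RA, with 90.5 and 145.5 CPM against 44.1 and 66.8 CPM in Control (1.09, SE 0.27, adjusted p = 0.0158), the highest log2 fold change of the 47 genes. In Rara KO cells it had 81.4 and 97.1 CPM, against 56.1 and 73.4 CPM in wt cells, and did not pass (0.46, SE 0.27, adjusted p = 0.226). RA 2 was well above RA 1 for Ccnd2, and the call was lost without RA 2 or without Control 1.

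Per kilobase of exon, the summed level of the 3 D-type cyclins was 102 and 127 RPKM with RA, against 216 and 211 RPKM in Control, and 197 and 186 RPKM in Rara KO cells, against 227 and 217 RPKM in wt cells. The composition of this sum differed between the groups too. Ccnd2 made up 15.4 and 19.8% of it with RA, against 3.53 and 5.48% in Control, and Ccnd1 made up 21.7 and 29.2% with RA against 40.6 and 42.8%. In Rara KO cells Ccnd1 made up 21.1 and 21.1%, against 32.6 and 29.5% in wt cells. Ccnd3 was the largest share in each of the 8 libraries.

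**Figure D3:**
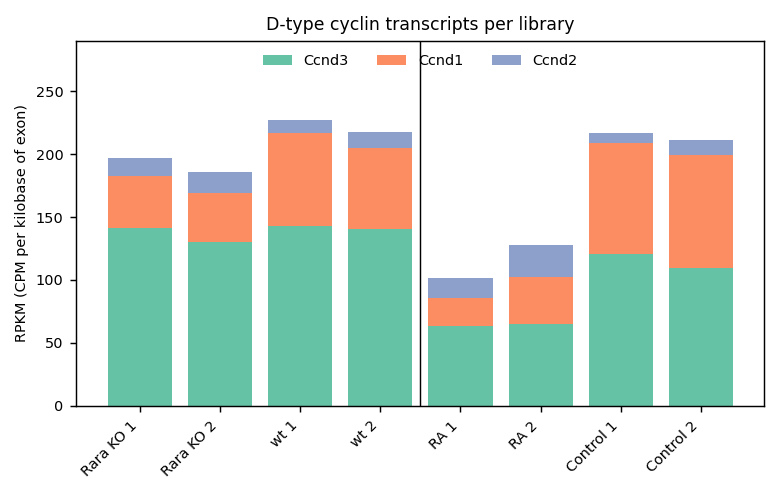
Bars give the summed RPKM of Ccnd3, Ccnd1 and Ccnd2 in each library, stacked in that order. The RA bars reach 102 and 127 RPKM against 216 and 211 in Control, and the Ccnd1 part of the Rara KO bars is smaller than that of the wt bars.

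Cdk4, the kinase partner of the D-type cyclins, rose in both comparisons. It had 250.5 and 260.0 CPM with RA, against 148 and 122 CPM in Control (log2 fold change 0.92, SE 0.13, adjusted p = 0.00126), and 269.5 and 235 CPM in Rara KO cells, against 181 and 155 CPM in wt cells (0.58, SE 0.13, adjusted p = 0.0152). Kinase and cyclin transcripts therefore went in opposite directions with RA for Ccnd1 and Ccnd3 and in the same direction for Ccnd2. Cdk2, the partner of E-type cyclins, was not called (0.34 with RA, adjusted p = 0.0576, and 0.27 in Rara KO, adjusted p = 0.122). Cdk6 and the E-type cyclins Ccne1 and Ccne2, which start S phase, were not called in either comparison, and their groups overlapped in all but one case: Cdk6 had 7.54 and 8.46 CPM with RA, against 10.5 and 13.6 CPM in Control.

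The 3 inhibitors did not move as a group. Cdkn1a, on chromosome 17 from 29090986 to 29100722 in mm10, had 88.4 and 149 CPM with RA, against 341 and 470.2 CPM in Control (log2 fold change -1.77, SE 0.25, adjusted p = 0.0012), the lowest log2 fold change of the 47 genes. In Rara KO cells it had 243 and 284 CPM, against 401 and 443.5 CPM in wt cells (-0.68, SE 0.24, adjusted p = 0.071). Both Rara KO libraries lay below both wt libraries, and DESeq2 called the difference at an adjusted p of 0.0119. Cdkn1b fell slightly with RA, with 55.7 and 49.2 CPM against 62.8 and 64.7 CPM (-0.28, SE 0.09, adjusted p = 0.0455), a call that was lost when any of 7 libraries was left out, RA 1 being the exception. It had 95.6 and 96.7 CPM in Rara KO cells, against 86.5 and 86.3 CPM in wt cells, and was not called (0.15, adjusted p = 0.24). Cdkn2c rose in Rara KO cells, with 31.6 and 27.5 CPM against 18.5 and 18.2 CPM in wt cells (0.69, SE 0.18, adjusted p = 0.025), and had 26.6 and 22.0 CPM with RA against 23.6 and 16.9 CPM in Control, where the ranges overlapped (0.26, adjusted p = 0.277).

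Among the regulators, Myc, which drives growth and ribosome genes, had 134 and 150 CPM with RA, against 79.9 and 69.3 CPM in Control (log2 fold change 0.93, SE 0.10, adjusted p = 0.000406). Its level in Rara KO cells was 102 and 102 CPM, against 83.5 and 80.2 CPM in wt cells, a small difference with close replicates that just missed the threshold (0.32, SE 0.10, adjusted p = 0.0553). E2f1, an activator of S phase genes, rose with RA (66.7 and 60.8 CPM against 52.9 and 47.6 CPM in Control, 0.34, adjusted p = 0.0298) and was uncalled without RA 1, without Control 1 or without Control 2. Rb1, the retinoblastoma gene, had 91.8 and 78.3 CPM with RA, against 72.5 and 82.7 CPM in Control (0.13, SE 0.11, adjusted p = 0.394), and 66.2 and 71.8 CPM in Rara KO cells, against 70.8 and 70.3 CPM in wt cells (-0.03, SE 0.11, adjusted p = 0.858). Its groups overlapped both times. E2f2 and Rbl1, the gene of the RB relative p107, were not called in either comparison.

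**Figure D4:**
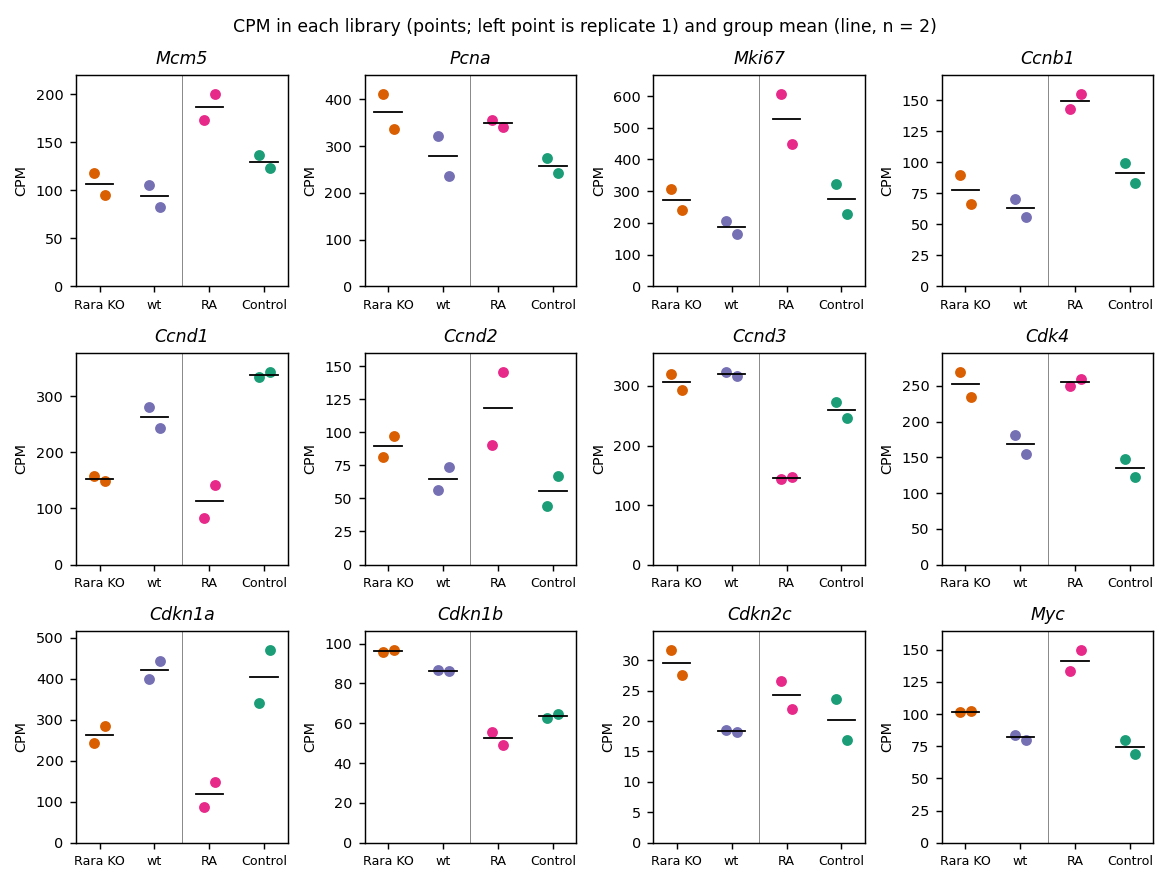
Points give CPM in each library and lines the mean of 2 libraries for 12 genes, with Rara KO and wt left of the grey line and RA and Control right of it. Ccnd1 and Cdkn1a are lower and Cdk4 and Myc higher in the left group of each pair, and Ccnd3 is lower in RA at 144 and 147 CPM but not in Rara KO.

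Both comparisons called 5 genes, Cdk1, Cdc20, Cenpa, Cdk4 and Ccnd1, and in the same direction each time. These were 5 of the 8 genes called in Rara KO and 5 of the 25 called with RA. The share of all tested genes called in both was not counted, so no background stands beside these 5. The comparisons share no library, although the fit shares its estimate of the spread. Another 20 genes were called with RA only, 3 in Rara KO only (Birc5, Ccnb2 and Cdkn2c), and 19 in neither. A call in one comparison and not in the other does not show a difference, so the RA effect minus the Rara KO effect was tested. Of the 47 genes only Ccnd3 passed, with a difference of -0.77 (SE 0.13, adjusted p = 0.0175), where 6.09% of all tested genes passed in either direction. Myc at 0.61 (SE 0.15, adjusted p = 0.0506) and Bub1b at 0.70 (SE 0.18, adjusted p = 0.0623) were the next nearest. The call for Ccnd3 was lost without wt 1, without wt 2, without Control 1 and without RA 1, and the count of genes whose effects differed was 5 by DESeq2.

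Both untreated wild-type pairs were set against each other as well. Relative to Control, wt libraries were called lower for 7 of the 47 genes and higher for 1, beside 11.7% lower and 9.94% higher over all tested genes, so these shares were near or under the background. The median log2 difference of the 47 was -0.29. None was called by edgeR without wt 2, Control 1 or Control 2, with 9, 8 and 20 genes at an unadjusted p under 0.05, and 3 were called without wt 1. DESeq2 called 13 with all libraries. The lower genes were Bub1b, Top2a, Kif11, Bub1, Uhrf1, Mcm4 and Rbl1, and the higher one was Cdkn1b. Top2a, the topoisomerase that untangles chromosomes, had 292 and 227 CPM in wt, against 441 and 397.5 CPM in Control (log2 difference -0.69, SE 0.16, adjusted p = 0.0233). Bub1b had 80.5 and 72.3 CPM in wt, against 134 and 121 CPM in Control (-0.74, SE 0.13, adjusted p = 0.0104).

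Other genes of the same pathways were taken from lists of known members, whose counts stand beside 15.2% higher and 19.3% lower over all genes with RA and 13.6% and 13.3% in Rara KO. Of 48 further replication genes, 18 rose and 1 fell with RA, and 10 rose and 1 fell in Rara KO, with medians of 0.37 and 0.16 in log2. Cdc45, a part of the active helicase, had 68.0 and 69.3 CPM with RA, against 41.4 and 34.8 CPM in Control (log2 fold change 0.85, SE 0.14, adjusted p = 0.00281), and Rpa3, of the single-strand binding complex, had 51.3 and 51.6 CPM in Rara KO cells, against 33.7 and 28.1 CPM in wt cells (0.74, SE 0.13, adjusted p = 0.00687). Lig1, the ligase that joins Okazaki fragments, rose with RA (0.91, adjusted p = 0.0048). Of 61 further mitosis genes, 32 rose and 1 fell with RA, and 6 rose and 2 fell in Rara KO, with medians of 0.44 and 0.29, so in Rara KO the share of higher calls was under that of all genes. Ube2c, which works with the anaphase-promoting complex, rose in both, with 163 and 137 CPM in Rara KO cells against 83.7 and 74.2 CPM in wt cells (0.93, adjusted p = 0.00525). Cdc25b, a phosphatase that activates Cdk1, rose with RA (1.00, SE 0.15, adjusted p = 0.00152). Espl1, the separase that cuts cohesin, went against the list and fell in both, with 69.6 and 67.2 CPM with RA, against 110 and 114 CPM in Control (-0.71, SE 0.09, adjusted p = 0.000738), and 34.3 and 30.7 CPM in Rara KO cells, against 64.0 and 65.3 CPM in wt cells (-0.99, SE 0.09, adjusted p = 0.00125). In wt cells Espl1 was also lower than in Control, at -0.79 in log2. Espl1 has 6630 bases of exon, while Rpa3 and Ube2c, which rose in Rara KO, have 638 and 931. The median of all tested genes was 2844, and Rara KO libraries held more reads in 3′ untranslated regions than wt. The list counts were not recomputed with the length trend removed. Of 9 tested genes of replication-dependent and related chromatin proteins, 4 rose with RA and 2 in Rara KO. H2afx, the histone variant marked at DNA breaks, rose in both, and Hmgb2, a chromatin protein of dividing cells, did as well (0.94 with RA and 0.86 in Rara KO in log2). Reads of replication-dependent histone genes are few after poly(A) selection, and copies of these genes are close in sequence.

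Brakes other than the 3 inhibitors moved both ways. Of 17 tested, 6 rose and 3 fell with RA, and 5 rose and 2 fell in Rara KO. Cdkn2d, the gene of the Cdk4 and Cdk6 inhibitor p19, rose with RA, with 47.6 and 38.9 CPM against 27.4 and 23.5 CPM in Control (log2 fold change 0.76, SE 0.14, adjusted p = 0.0047), and in Rara KO, with 63.4 and 53.4 CPM against 33.2 and 30.4 CPM in wt (0.88, SE 0.14, adjusted p = 0.00525). Gas2, a growth-arrest gene, rose in both from low levels (1.77 with RA, adjusted p = 0.00098, and 1.70 in Rara KO, adjusted p = 0.0034), and the antiproliferative gene Tob2 fell in both (-0.81 and -0.79). Of 20 genes around p53, which also controls Cdkn1a, 3 rose and 6 fell with RA and 3 rose and 3 fell in Rara KO, with medians of -0.20 and -0.01. Trends within the Gadd45 family were opposed, since Gadd45a rose (1.55 with RA and 1.51 in Rara KO) and Gadd45b fell (-1.96 and -0.95). Of 19 genes around Myc, 7 rose and 2 fell with RA and 2 rose and 2 fell in Rara KO. The MYC antagonists Mxd1 (-1.14 with RA and -0.84 in Rara KO) and Mxd4 (-1.49 and -1.35) fell in both, and Ldha, a glycolytic MYC target, rose with RA (0.79). Of 21 genes of the E2F and DREAM regulators, 2 rose and 1 fell with RA and 1 rose and 1 fell in Rara KO.

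A further list held receptors and signalling genes of GM-CSF and TGFβ and of other growth factors of myeloid cells. Of its 17 genes, 3 rose and 11 fell with RA, and 4 fell in Rara KO while 13 did not pass, with medians of -0.74 and -0.40 in log2. Kit, the stem cell factor receptor, had 10.7 and 14.3 CPM with RA, against 73.6 and 73.2 CPM in Control (log2 fold change -2.56, SE 0.31, adjusted p = 0.000558), and Jak2, a kinase used by the GM-CSF receptor, had 185 and 315 CPM against 778 and 804 CPM (-1.66, SE 0.21, adjusted p = 0.000795). Jak2 was also lower in Rara KO cells (-0.84, adjusted p = 0.0225), as was Csf1r, the M-CSF receptor, with 619 and 584 CPM against 1227 and 1323 CPM in wt cells (-1.08, SE 0.14, adjusted p = 0.00292). Bcl2, a survival gene, fell with RA (-1.75, adjusted p = 0.000129). Kit is also a marker of mast cells and stem cells. Of 5 tested mast cell and basophil markers, Kit among them, 3 fell with RA, and the list summed to 14.4 and 24.1 CPM with RA against 95.2 and 99.2 CPM in Control. The stem and progenitor list summed to 47.1 and 105.2 CPM with RA against 150.1 and 162 CPM in Control. In Rara KO the same list summed to 284.1 and 221.2 CPM, against 161.9 and 153.9 CPM in wt. Of its 4 tested genes, 0 were called higher and 1 lower in Rara KO. The part of such cells in the values of Kit was not tested.

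Which of the 47 calls held under other processing depended on the comparison. Bub1b, Ccnd1, Ccnd3, Cdk4, Cdkn1a and Myc were called with RA under each of the 20 alternative fits, and no gene was called in Rara KO under each of them. Of the 25 genes called with RA, none changed sign in any of the 20. Among the 39 genes uncalled in Rara KO, 26 changed sign in at least one alternative, as did 3 of the 22 uncalled with RA.

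**Figure D5:**
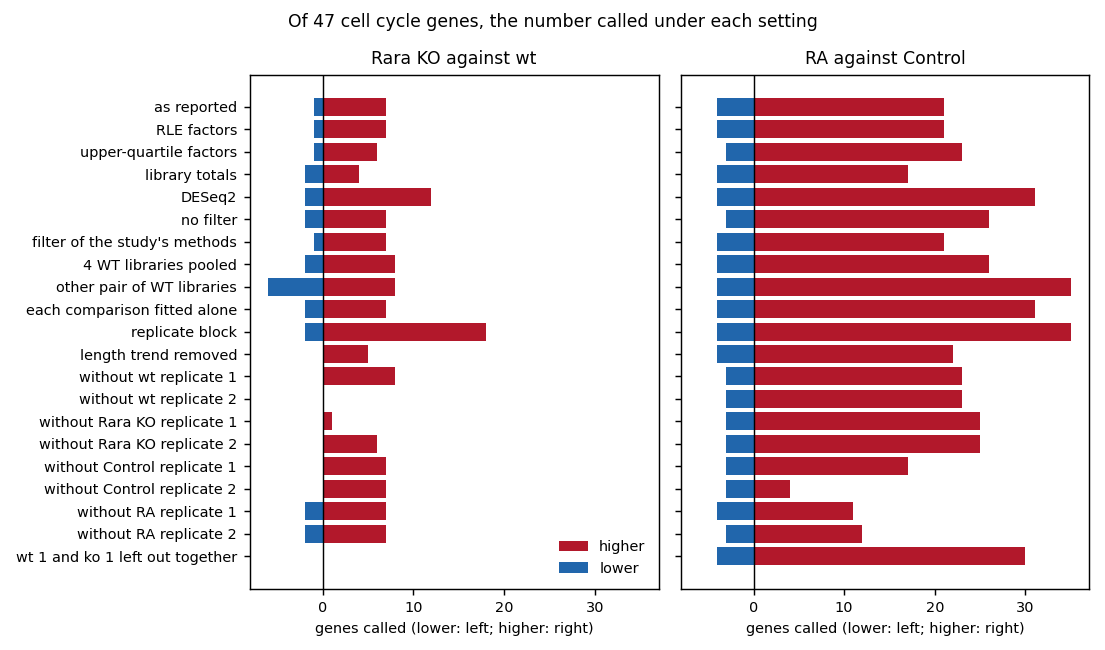
Bars give the number of the 47 genes called higher (right of 0) and lower (left of 0) under each processing, for Rara KO against wt (left) and RA against Control (right). The count in Rara KO is 0 without wt 2, and the count with RA is lowest without Control 2, at 4 higher and 3 lower.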

How the data were processed

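Poly(A) RNA of 8 libraries was sequenced as stranded read pairs. The authors aligned the pairs to mm10 with STAR and assigned them by strand to refGene genes with featureCounts; the counts they deposited are unnormalized whole numbers for 24421 genes. No source used here names the versions. The deposited RPKM values (8 columns) and the authors' own fold changes and p-values were not used. Columns were matched to groups by name, the Control columns only as a pair of WT libraries.

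CPM and log2 fold changes were computed from the counts with edgeR 4.0.16 in R 4.3.3. The fit used glmQLFit and glmQLFTest with TMM factors, all 8 libraries in 4 groups and 4 residual degrees of freedom. Genes needed 0.5 CPM in 2 libraries, p-values were Benjamini-Hochberg adjusted, and the threshold was 0.05. CPM use TMM library sizes, and RPKM are those CPM per kilobase of exon. The SE is the size of the log2 fold change over the square root of F. The fit was also run on simulated counts, drawn with its own estimates of spread. These left out the granulocyte transcripts and other differences between the libraries, so the run does not show how stable the calls are.

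The 47 genes, the lists and the tests were chosen with earlier results of these data known. Genes were given in full when called in either comparison, up to 6 per role by smallest p, together with Mki67, Pcna, Ccnb1, Ccnd1, Ccnd2, Ccnd3, Cdkn1a, Cdkn1b, Cdkn2c, Rb1 and Myc, up to 3 genes per list by smallest p, and Rara. Other genes given by value (among them Mcm2, Mcm4, Mcm6, Birc5, Cdk1, Top2a, Cdk6, Itgax, Xist and Ddx3y) were added after their values were seen. Alternatives were DESeq2 1.42.0, other scaling, filters and thresholds, 4 WT libraries pooled, the other WT pair, separate fits, a replicate block, a length trend, and each library left out. The labels give 1 nM RA and the study's text a higher dose. The labels allow regular or charcoal-treated serum, and the study states charcoal-treated.

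Markers of other cells were summed per library. Monocyte and macrophage markers summed to 1812 and 2229 CPM in Rara KO, 2441 and 2715 CPM in wt, 1677 and 1906 CPM in RA and 2199 and 2814 CPM in Control libraries. Sums for mast cell and basophil, eosinophil, erythroid and megakaryocyte, B and plasma cell, T and NK cell, stromal, and stem cell lists stayed at or under 284.1 CPM in every library, with Hba-a1 and Hbb-b1 at 0 in all 8. Eosinophil markers summed to 211.3 and 139.2 CPM in Rara KO, against 49.6 and 74.8 CPM in wt. Of these 3 markers, 2 were called higher and 0 lower in Rara KO. The part of such cells in the results was not tested.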

Additional observations from a re-analysis of the deposited data

How the results depend on the processing

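Tested against 20 alternatives besides thresholds, the number of the 47 genes called in Rara KO (8) was 14 with DESeq2, 14 against the other pair of WT libraries, 5 with the length trend removed, 1 at an adjusted p under 0.01 and 15 under 0.1, 0 without wt 1 and Rara KO 1 together (an alternative chosen after seeing the data), and 0 to 9 with 1 library left out. The number called with RA (25) was 39 against the other pair of WT libraries, 10 at an adjusted p under 0.01, and 7 to 28 with 1 library left out. In Rara KO the 14 called with DESeq2 were 12 higher and 2 lower, but the 14 against the other WT pair were 8 higher and 6 lower. Against that pair 22 of the 47 genes changed sign, and their median log2 fold change was -0.0061. Over all genes, 3346 were called in Rara KO and 4291 with RA. The Rara KO count was 7030 against the other WT pair, 2187 fitted alone, 1443 without wt 1 and Rara KO 1, 1166 at 0.01, and 981 to 3174 with 1 library left out, and the RA count was 2361 at 0.01 and 2155 to 4689 with 1 library left out. Members whose effects differed (1) were 2 with RLE factors, 3 with upper-quartile factors, 3 with library totals, 5 with DESeq2, 3 with no filter, 20 with the 4 WT libraries pooled, 2 with the length trend removed, 0 without wt 1 and Rara KO 1, 0 at 0.01, 5 at 0.1, and 0 to 3 with 1 library left out. For wt against Control (8) the counts were 13 with library totals, 13 with DESeq2, 4 with the length trend removed, 0 at 0.01, 15 at 0.1 and 0 to 11 with 1 library left out. With the 4 WT libraries pooled, the count of 20 set RA directly against Rara KO, because the shared WT group dropped out. Differences that wt and Control would have taken out stayed in it. The causes of these moves were not tested, apart from the fewer libraries, the other threshold or the direct contrast that some of them have by construction.

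The replicate numbers pair only 2 samples a group, and the correlation of the differences between numbers was 0.283 for Rara KO with wt and 0.272 for RA with Control, which does not establish a pairing. With the replicate block 20 of the 47 genes were called in Rara KO, 39 with RA and 7 for the difference. Library totals as the scale moved the median of all genes by -0.14 in Rara KO, where 979 genes were then called higher and 2770 lower, beside 1688 and 1658. Of 87 results for single genes, values changed sign in 8 cases, none of them called as reported except Espl1 with RA. Against the other WT pair these were Mki67 at -0.0104, Ccnb1 at -0.23 and Ccnd3 at 0.24 in Rara KO, and Mcm4 at 0.57 and Espl1 at 0.0813 with RA. With the 4 WT libraries pooled, Ccnd3 was at 0.0778 in Rara KO and Mcm4 at 0.17 with RA, and with the length trend removed Rb1 was at 0.14 in Rara KO. The smallest count among the 47 genes was 201, and the part of read depth in the calls was not tested.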
